A study of Mus musculus with 6 samples.

Results

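Genes of the blood vessel wall and of the brain's coverings were examined in RNA of the ventromedial hypothalamus (VMH), a nucleus known for its role in energy balance. The 38 genes were chosen by symbol as markers of endothelial cells (21 genes), mural cells (7 genes) and fibroblasts with their matrix (10 genes), out of 19057 genes with a named probe on the array. Of these, 28 had a probe that could be tested, out of 10825 tested genes in all. A probe was tested where its detection p-value was under 0.05 on at least 3 of the 6 arrays, and the brightest such probe stands for a gene.

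The KO samples came from mice with a knockout of FoxO1, a transcription factor that insulin signalling keeps out of the nucleus, limited to the VMH. The WT samples came from wild-type mice. Each genotype had 3 Illumina Mouse-6 V2 BeadChip arrays, and each array carried RNA pooled from 3 animals, so a replicate is a pool and not an animal. Both genotypes had a mixed strain background and no treatment. Age, sex, the Cre driver, any floxed allele in the WT mice and the kind of VMH cell that lost FoxO1 were not given in the sources used here. In such tissue RNA, fewer vascular cells and less RNA per vascular cell cannot be told apart. The comparison asks whether vascular transcripts differ when FoxO1 is missing from this nucleus.

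Between 18771 (KO 1) and 20445 (WT 1) of 45281 probes were detected on an array. KO 1 stood apart: its correlation with the other arrays averaged 0.954, where each of the others averaged 0.977 to 0.981. Over all tested genes KO 1 gave the lowest value of the 6 arrays for 33.3% and the highest for 38%, so differences are also given without it. Transcripts of exocrine pancreas varied widely between pools, with a mean level over 17 tested markers of 8.996 to 11.86 in KO and 8.44 to 11.32 in WT on the log2 scale, highest on KO 1. Their part in the vascular values was not tested. Foxo1 itself was read by 2 tested probes. On the brighter one the KO arrays were the 3 lowest (7.01 ± 0.46 in KO, 7.65 ± 0.18 in WT; SD, n = 3 each), and the difference of -0.65 (-0.38 without KO 1) did not pass (limma adjusted p = 0.582). Its unadjusted p in limma was 0.0265, and 0.0392 without KO 1. The dimmer one, detected on 2 KO and 2 WT arrays, differed by 0.34 (limma adjusted p = 0.677). Without KO 1 it differed by 0.72, where limma gave an unadjusted p of 0.0201. Since the position of these probes relative to the deleted stretch is unknown here, they do not check the genotype labels.

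Brain capillaries are tubes of endothelial cells whose tight junctions and transporters form the blood-brain barrier. Vascular endothelial growth factor acts on them through the receptors encoded by Flt1 and Kdr, and angiopoietins through the receptor encoded by Tek. Pericytes and smooth muscle cells, together called mural cells, wrap the tube, and both cell types rest on a basement membrane of type IV collagen, laminin, nidogen and perlecan. Fibroblasts sit around larger vessels and in the meninges and lay down interstitial collagens and small proteoglycans such as decorin. FoxO1 is itself expressed in endothelial cells, where it restrains growth.

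The vascular labels were borne out in part. Of the 28 tested genes 19 were detected on all 6 arrays, among them the endothelial markers Cldn5, Pecam1, Flt1, Tek, Ly6c1, Egfl7, Itm2a and Emcn and the mural markers Rgs5, Acta2, Myl9 and Vtn. The fibroblast label was weakly borne out. The interstitial collagen genes Col1a1, Col1a2 and Col3a1 were detected on no array, and Lum, which encodes a fibroblast proteoglycan, on 1 KO array and no WT array. Dcn, Ogn and Mgp were detected, so the group is called fibroblast and matrix genes, and no amount of meninges is read from it. Kdr and the barrier transporter gene Abcb1a were detected on no array. The barrier transporter gene Slco1a4 and the tight junction gene Ocln were detected on 1 WT array each. The mural genes Abcc9, a channel subunit, and Tagln, an actin-binding protein, were detected on 1 KO and 1 WT array and on 1 KO array. A probe without a signal does not show that its transcript is missing.

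None of the 35 tested probes of these genes passed the comparison of KO with WT (limma, Benjamini-Hochberg adjustment over all 20006 probes, smallest adjusted p = 0.582), where 0.005% of all tested probes passed. Without KO 1 the smallest limma adjusted p of a member was 0.937. At an unadjusted p under 0.05, 3 genes read lower in KO (Flt1, Col4a1 and Col4a2) and 1 read higher (Ogn). By that rule 2.81% of all tested genes were lower and 3.54% higher, so the count of higher members is near the background. The 3 lower members of 28 are above their share. However, Col4a1 and Col4a2 are partner chains that followed the same arrays, and the members were chosen with earlier results known. None of the 4 kept an unadjusted p under 0.05 when KO 1 was left out. Of the 28 genes, 15 read lower and 13 higher in KO, with a median difference of -0.11 on the log2 scale, where 47.4% of all tested genes read lower and 52.6% higher, with a median of 0.019. Without KO 1, 19 of the 28 read lower, with a median of -0.067.

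**Figure D1:**
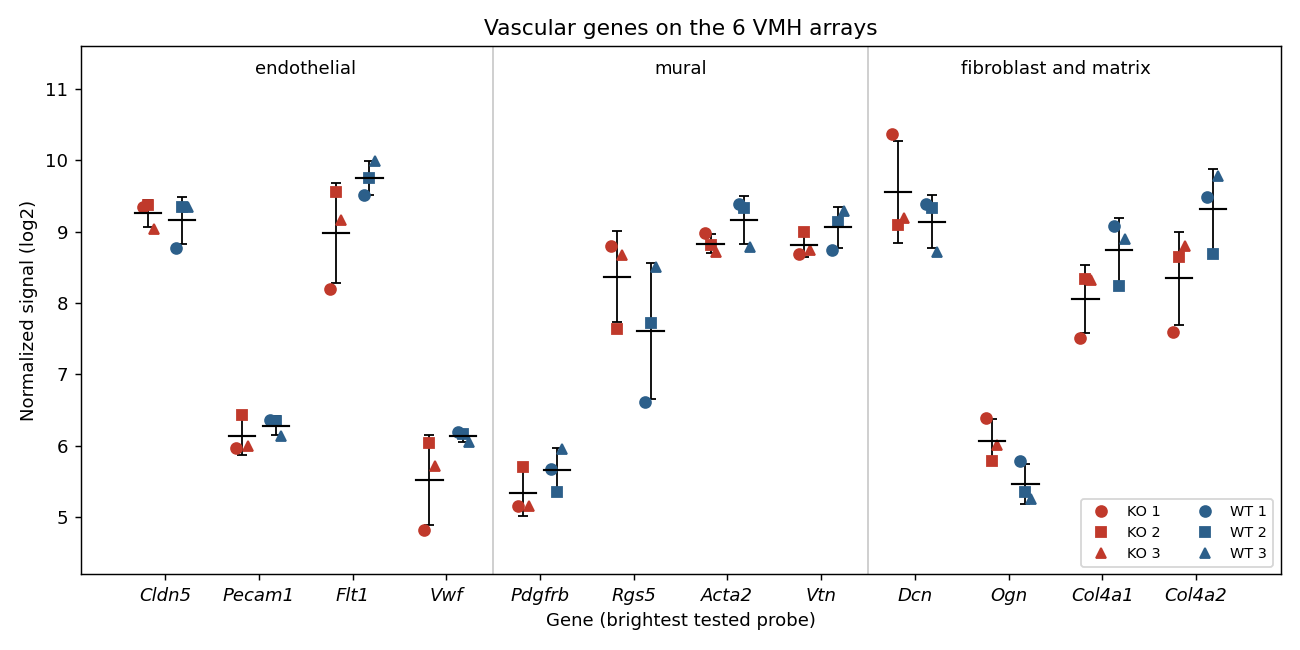
Normalized log2 signal (vertical axis) of 12 vascular genes on each KO array (left) and each WT array (right), with the replicate number shown by the symbol. Bars give the mean and SD of 3 arrays. KO 1 is lowest for Pecam1, Flt1, Vwf, Vtn, Col4a1 and Col4a2 and highest for Rgs5, Dcn and Ogn.

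Endothelial genes showed no shared direction. Of 17 tested genes 9 read higher and 8 lower in KO, and the median difference was 0.015 (-0.033 without KO 1). Cldn5, which encodes the main claudin of the barrier's tight junctions, read 9.35, 9.37 and 9.04 on KO 1, KO 2 and KO 3, against 8.77, 9.35 and 9.34 on WT 1, WT 2 and WT 3. The genotypes overlapped, and WT 1 was the lowest array. The difference was 0.098 (SE 0.20, 95% interval -0.37 to 0.56), and it was -0.092 without WT 1. Pecam1, an adhesion molecule of endothelial junctions, read 5.96, 6.42 and 6.003 in KO, against 6.36, 6.35 and 6.13 in WT, in the same order of arrays. KO 2 was the highest of all, and the second Pecam1 probe differed by 0.092 where the first differed by -0.15 (-0.067 without KO 1).

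Flt1, which encodes vascular endothelial growth factor receptor 1, read 8.20, 9.56 and 9.16 in KO, against 9.52, 9.76 and 9.98 in WT. KO 1 and KO 3 lay below each WT array, while KO 2 lay just above WT 1. The difference was -0.78 (SE 0.32), or 1.71-fold lower in KO, with an unadjusted p of 0.0414 and an adjusted p of 0.582 in limma. It was -0.39 without KO 1, where limma gave an unadjusted p of 0.0799. Its other probe was detected on no array. Vwf, the clotting factor that endothelial cells store, read 4.82, 6.03 and 5.72 in KO, against 6.20, 6.16 and 6.05 in WT. It was the 1 member of 28 whose KO arrays all lay below all WT arrays, a pattern of 6.79% of all tested genes, and no member had all KO arrays above, against 8.6% of all tested genes. KO 2 and WT 3 were separated by a small margin, and the probe was detected on 2 KO and 3 WT arrays. The other Vwf probe was detected on no array. The difference was -0.61 (SE 0.29, limma adjusted p = 0.582), or -0.26 without KO 1 and -0.20 without background correction.

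Other endothelial genes are given by their differences, each followed by the value without KO 1 in parentheses. The receptor genes Tek and Tie1 differed by -0.32 (-0.31) and 0.015 (0.11), and Eng, a co-receptor for transforming growth factor beta, by -0.36 (-0.050). Esam, an endothelial adhesion molecule, differed by -0.34 (-0.15), and Emcn, a surface mucin mainly of veins and capillaries, by 0.30 (0.19). None of these passed. The surface genes Ly6c1 and Cd34 differed by 0.043 (-0.22) and 0.16 (0.0081), and the membrane protein gene Itm2a by 0.14 (0.039). The secreted factor Egfl7 differed by 0.066 (-0.015) on its brightest probe and by 0.080 (-0.093) and 0.20 (0.42) on the others. The sign of Ly6c1 and of the brighter pair of Egfl7 probes thus turned without KO 1. Among transcription factors, Sox17 and Sox18, which act in vessel formation, differed by -0.17 (-0.26) and -0.49 (-0.033), and Klf2 and Klf4, which respond to blood flow, by 0.016 (0.21) and 0.10 (0.16). Sox18 was lowest on KO 1 (4.88) and WT 1 (5.58).

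**Figure D2:**
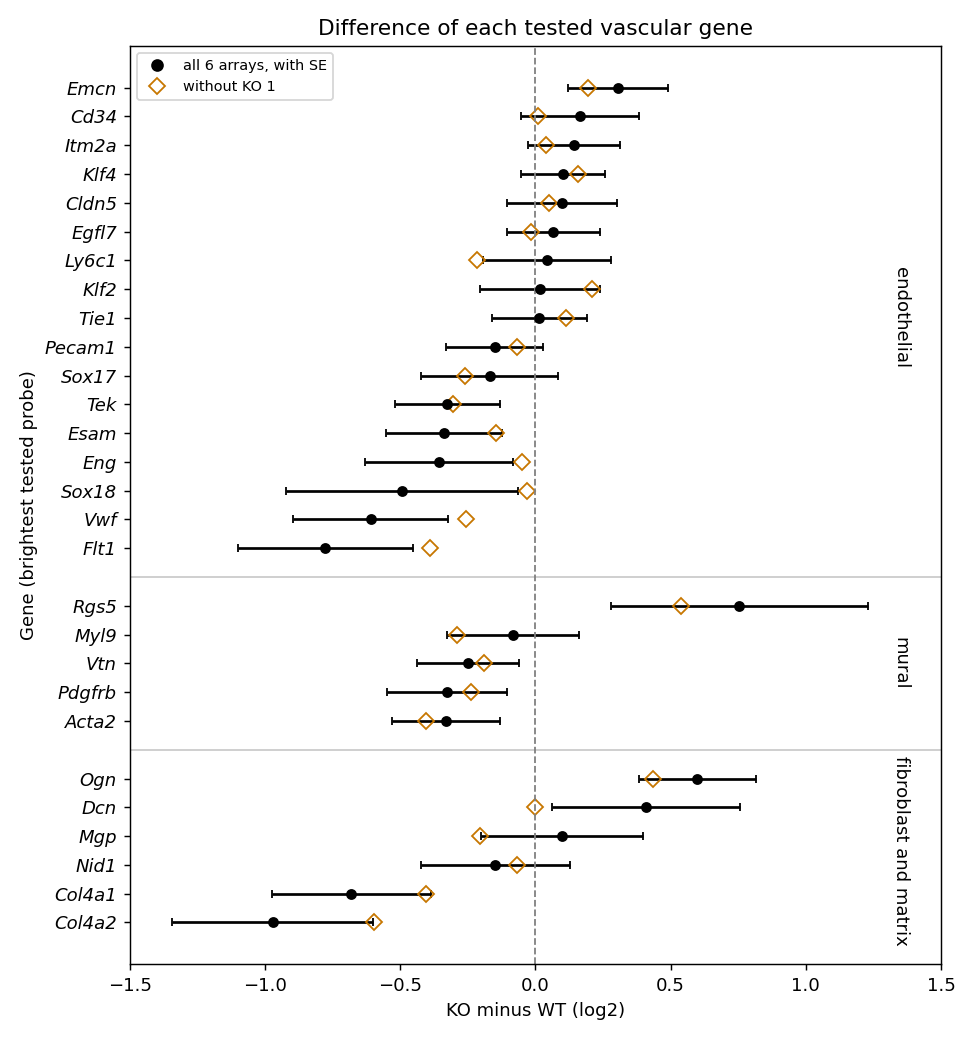
Difference of KO minus WT (log2, horizontal axis) for the brightest probe of each of the 28 tested genes, with the model's standard error as bars, and the same difference without KO 1 as open symbols. Leaving out KO 1 moves Flt1, Vwf, Sox18, Eng, Col4a1 and Col4a2 toward 0 from below and Dcn toward 0 from above.

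Mural genes read lower in KO in 4 of 5 cases, with a median difference of -0.25 (-0.24 without KO 1), and none passed. Rgs5, a regulator of G protein signalling and a marker of pericytes, read 8.80, 7.63 and 8.67 in KO, against 6.61, 7.72 and 8.51 in WT. The spread among the WT arrays was wider than the gap between the genotypes. The difference of 0.75 (SE 0.47, 95% interval -0.33 to 1.84) became 0.25 without WT 1 and 1.2 without WT 3. In a fit without KO 1 and WT 1, added after the data had been seen, it was 0.039. Pdgfrb, the receptor through which endothelial platelet-derived growth factor recruits pericytes, read 5.16, 5.70 and 5.15 in KO, against 5.68, 5.35 and 5.96 in WT. It was near background, detected on 1 KO and 2 WT arrays, and differed by -0.33 (SE 0.22, limma adjusted p = 0.591), or -0.24 without KO 1 and -0.097 without background correction.

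Acta2, the actin of smooth muscle, read 8.98, 8.81 and 8.71 in KO, against 9.39, 9.32 and 8.78 in WT. WT 1 and WT 2 lay above the KO range and WT 3 within it. Its difference was -0.33 (SE 0.20, limma adjusted p = 0.582), and -0.40 without KO 1. The other 3 tested Acta2 probes differed by -0.29, -0.045 and -0.0072. Myl9, a myosin light chain of smooth muscle, differed by -0.082 and, without KO 1, by -0.29. Vtn, which encodes vitronectin and is made by pericytes in brain, read 8.69, 8.99 and 8.74 in KO, against 8.75, 9.13 and 9.29 in WT. The genotypes overlapped through WT 1, and the difference was -0.25 (SE 0.19).

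Fibroblast and matrix genes divided into 3 that read higher and 3 that read lower in KO. The higher ones encode matrix proteins outside the basement membrane. Dcn, which encodes decorin, read 10.37, 9.09 and 9.19 in KO, against 9.38, 9.33 and 8.71 in WT. KO 1 alone lay above the WT range, and the difference of 0.41 (SE 0.35) was -6e-04 without it. Ogn, which encodes the small proteoglycan osteoglycin, read 6.39, 5.78 and 6.01 in KO, against 5.78, 5.36 and 5.25 in WT. KO 1 and KO 3 lay above all WT arrays, and KO 2 was level with WT 1. Detection was reached on 3 KO arrays and 1 WT array, so the probe met the filter mainly on KO arrays. The other Ogn probes were detected on no array. On the tested probe the difference was 0.60 (SE 0.22), or 1.51-fold, with an unadjusted p of 0.0228 and an adjusted p of 0.582 in limma. It was 0.43 without KO 1, where limma gave an unadjusted p of 0.0554, and 0.19 without background correction. Mgp, an inhibitor of calcification made in vessel walls, differed by 0.10, and by -0.20 without KO 1.

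The lower ones encode basement membrane proteins. Col4a1, a chain of type IV collagen, read 7.51, 8.34 and 8.32 in KO, against 9.08, 8.23 and 8.90 in WT. Its partner chain Col4a2 read 7.59, 8.64 and 8.80 in KO, against 9.49, 8.68 and 9.77 in WT. For both chains KO 1 was the lowest array and WT 1 and WT 3 were the highest, while WT 2 lay among the KO arrays. Col4a1 differed by -0.68 (SE 0.29), or 1.60-fold lower in KO, with an unadjusted p of 0.0471 and an adjusted p of 0.582 in limma. Col4a2 differed by -0.97 (SE 0.37), or 1.96-fold lower, with an unadjusted p of 0.0291 and an adjusted p of 0.582 in limma. Without KO 1 the differences were -0.41 and -0.59, where limma gave unadjusted p of 0.141 and 0.0853, and without WT 2 they were -0.93 and -1.29. Nid1, a nidogen that links collagen and laminin networks, differed by -0.15 (-0.066 without KO 1).

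The promoters of the 4 genes with an unadjusted p under 0.05 are shown because FoxO1 is a DNA-binding factor and because Col4a1 and Col4a2 share a stretch of DNA between them. RefSeq windows of 300 bases (250 before and 50 after the annotated start, build GRCm38.p6) were found for 27 of the 38 genes. Those of Col4a1 (chr8:11312777-11313076, minus strand) and Col4a2 (chr8:11312555-11312854, plus strand) overlap by 78 bases on opposite strands. The Flt1 window is chr5:147725962-147726261 on the minus strand and that of Ogn chr13:49607765-49608064 on the plus strand. Capitals mark matches on either strand to the CCAAT box (CCAAT), the GC box (GGGCGG) or the TATA box (TATAAA). No match overlaps that of another motif, and in Ogn the TATA letters match on both strands and overlap.
Col4a1: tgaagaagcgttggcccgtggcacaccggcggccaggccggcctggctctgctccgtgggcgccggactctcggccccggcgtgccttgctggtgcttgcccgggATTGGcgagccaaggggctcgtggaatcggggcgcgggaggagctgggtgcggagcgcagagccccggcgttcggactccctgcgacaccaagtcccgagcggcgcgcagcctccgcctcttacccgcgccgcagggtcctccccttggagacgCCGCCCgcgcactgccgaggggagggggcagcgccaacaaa
Col4a2: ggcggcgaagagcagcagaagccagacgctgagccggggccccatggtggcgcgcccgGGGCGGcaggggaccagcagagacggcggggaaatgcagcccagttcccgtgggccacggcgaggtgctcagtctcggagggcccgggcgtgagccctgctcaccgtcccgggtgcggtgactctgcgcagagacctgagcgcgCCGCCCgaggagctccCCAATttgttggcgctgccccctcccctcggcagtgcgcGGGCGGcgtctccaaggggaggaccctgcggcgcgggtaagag
Flt1: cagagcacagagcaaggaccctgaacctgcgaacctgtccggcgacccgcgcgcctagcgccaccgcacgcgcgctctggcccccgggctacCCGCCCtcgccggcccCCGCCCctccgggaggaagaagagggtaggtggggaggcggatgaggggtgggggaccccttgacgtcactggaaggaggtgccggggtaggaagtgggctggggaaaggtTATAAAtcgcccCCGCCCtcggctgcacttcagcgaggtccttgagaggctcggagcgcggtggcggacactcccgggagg
Ogn: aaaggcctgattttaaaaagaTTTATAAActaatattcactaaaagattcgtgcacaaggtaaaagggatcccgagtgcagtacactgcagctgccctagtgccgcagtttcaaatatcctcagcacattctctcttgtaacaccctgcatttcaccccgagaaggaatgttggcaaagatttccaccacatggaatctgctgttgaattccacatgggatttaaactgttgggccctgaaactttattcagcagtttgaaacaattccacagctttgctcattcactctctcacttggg

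Both collagen windows are rich in G and C (74% for Col4a1 and 73.7% for Col4a2, against a median of 52.7% over all 32851 windows), hold CCAAT and GC boxes and have no TATA letters. Flt1 (70.7% G and C) has the TATA letters 31 bases before its start and 3 GC boxes. Ogn has 42.3% G and C and TATA letters 227 bases before its start. The FoxO core GTAAACA was found in none of the 4, in 1 of the 27 genes with a window (Abcb1a) and in 3.65% of all windows. The CCAAT box was found in 9 of the 27 genes (37.4% of all windows), the GC box in 14 (35.7%), the TATA letters in 5 (13.6%) and the CArG box, known from smooth muscle genes, in Myl9 (1.63%). A gene was counted if any of its windows matched (31 windows for the 27 genes), while the shares are per window, so the units differ. A match describes letters and not binding.

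Beside Col4a1, Col4a2 and Nid1, the further matrix and meningeal list held 11 genes grouped here, basement membrane genes and the fibronectin gene. They were grouped after their values had been seen, so the group has no test. Of the 11 genes 7 were tested and 6 read lower in KO, with a median difference of -0.69 that became -0.28 without KO 1, when 5 read lower. KO 1 was the lowest array for all 7. Over all tested genes 47.4% read lower, and KO 1 was the lowest array for 33.3%. In the whole list from which they were picked, 9 of 15 tested genes read lower and 6 higher, with a median of -0.11. Lamc1, a laminin chain, read 6.28, 7.498 and 7.52 in KO, against 7.62, 7.84 and 7.91 in WT. All its KO arrays lay below all WT arrays, KO 1 far below, and the difference was -0.69 (-0.28 without KO 1). Hspg2, which encodes perlecan, differed by -0.72 (-0.35 without KO 1), Fn1, which encodes fibronectin, by -0.75 (-0.39), and Lamb2, another laminin chain, by -0.41 (-0.19). Col18a1, whose product carries endostatin, read 6.95, 7.28 and 7.82 in KO, against 8.39, 7.48 and 8.60 in WT. WT 2 again lay among the KO arrays, and the difference was -0.80, or -0.61 without KO 1 (unadjusted p = 0.0361, limma adjusted p = 0.582 with all arrays). The laminin gene Lama2 differed by 0.063 (0.25 without KO 1) and the collagen gene Col15a1 by -0.035 (0.089).

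**Figure D3:**
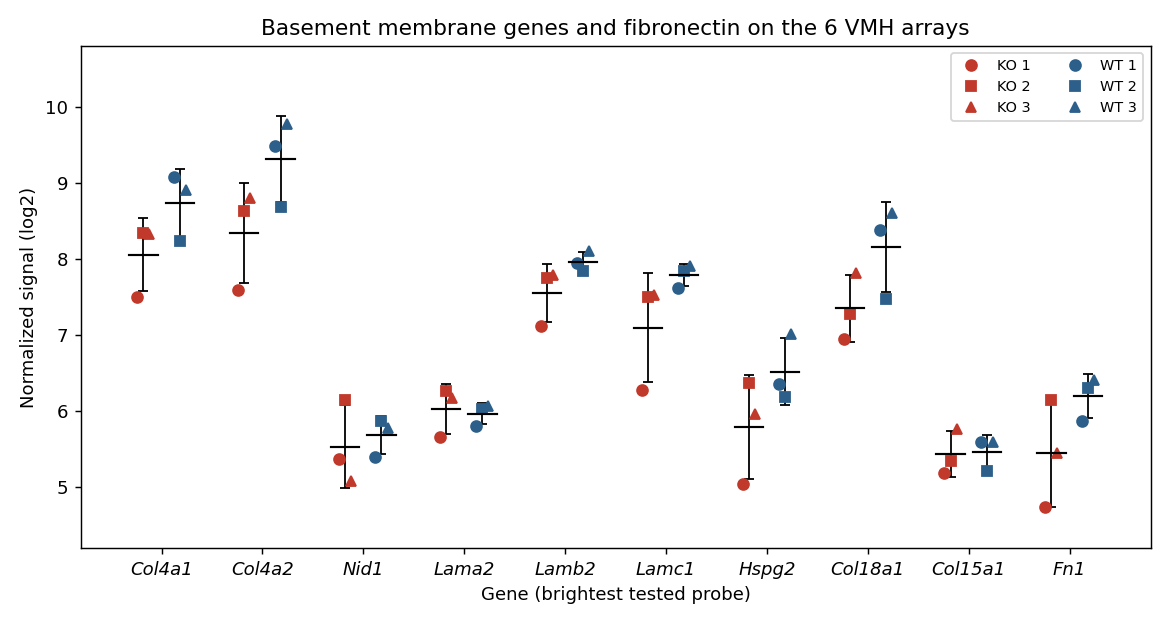
Normalized log2 signal (vertical axis) of 10 genes of the basement membrane and fibronectin on each KO array (left) and WT array (right), with mean and SD of 3 arrays. KO 1 is the lowest array for 9 of the 10 genes, and for Col4a1, Col4a2 and Col18a1 WT 2 lies with the KO arrays.

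Signalling genes of the vessel wall gave no call either. Of 23 genes for vascular endothelial growth factor, angiopoietin, Notch and platelet-derived growth factor signalling, 20 were tested, 9 higher and 11 lower in KO, with a median of -0.025. Hey2, a Notch target in arteries, read 7.12, 6.50 and 6.69 in KO, against 6.37, 6.31 and 6.12 in WT. The KO arrays were the 3 highest, the difference was 0.51, and the second Hey2 probe differed by 0.46 (limma adjusted p = 0.582 for both). Without KO 1 the values were 0.33 and 0.31. The lymphatic growth factor Vegfc differed by 0.57, and by 0.63 without KO 1, with all KO arrays above all WT arrays on a dim probe. Notch3, a receptor of mural cells, read 5.56, 6.92 and 6.45 in KO, against 6.97, 7.07 and 6.96 in WT. All its KO arrays lay below all WT arrays, KO 2 by a small margin, and the difference was -0.69 (-0.31 without KO 1). Angpt2, which destabilizes vessels and is a known FoxO1 target in endothelial cells, differed by -0.056 on a dim probe. That probe was detected on 2 KO and 2 WT arrays, so little can be read from it. The ligand gene Vegfa differed by -0.31 (-0.17 without KO 1) and, on its other probe, by -0.059.

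Among further endothelial and barrier genes, 17 of 28 were tested and 13 of them read lower in KO, with a median of -0.18 (-0.16 without KO 1), and none passed. The smallest p-values belonged to Ptprb, a phosphatase that restrains the receptor encoded by Tek, Cdh5, the cadherin of endothelial junctions, and Mfsd2a, the lipid transporter of the barrier. Their differences were -0.51, -0.44 and -0.34, each with an adjusted p of 0.582 in limma, and without KO 1 they were -0.27, -0.30 and -0.23. Mfsd2a read 9.86, 9.98 and 10.37 in KO, against 10.30, 10.41 and 10.51 in WT. KO 3 lay within the WT range and KO 1 and KO 2 below it. The barrier's glucose transporter gene Slc2a1 differed by -0.33 (-0.21 without KO 1).

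Of 14 further mural genes 7 were tested and 5 read lower, with a median of -0.27 (-0.12 without KO 1), and none passed. Notch3 is counted here as well as in the signalling list, so these lists are not separate. Cspg4, a proteoglycan of pericytes and of oligodendrocyte precursors, read 5.83, 5.92 and 5.58 in KO, against 6.003, 6.23 and 6.20 in WT. All its KO arrays lay below all WT arrays, and the difference was -0.37 (limma adjusted p = 0.582), or -0.39 without KO 1. Mcam, an adhesion molecule of mural and endothelial cells, differed by -0.35 on its brightest probe and by -0.20 and -0.068 on the others. Of 28 further matrix and meningeal genes 15 were tested and 9 read lower, with a median of -0.11. In this list Igf2, a growth factor made in the meninges and choroid plexus, read 11.14, 10.89 and 10.79 in KO, against 10.57, 10.58 and 10.48 in WT. The KO arrays were the 3 highest, and the difference was 0.39 (limma adjusted p = 0.582), or 0.29 without KO 1.

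**Figure D4:**
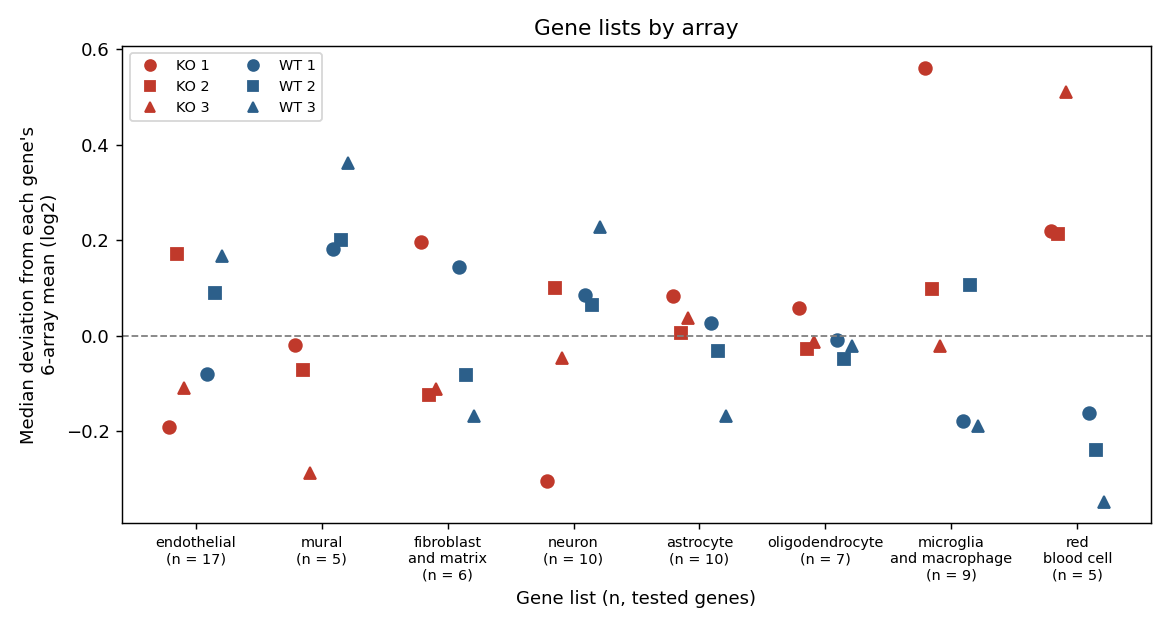
Median over the tested genes of each list of the deviation from the gene's 6-array mean (log2, vertical axis), for each KO array (left) and WT array (right). The endothelial and fibroblast lists overlap between genotypes, while the mural list lies lower and the red blood cell list higher on each KO array.

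Across arrays the median deviation of the endothelial list from each gene's mean was -0.19, 0.17 and -0.11 on KO 1, KO 2 and KO 3, against -0.081, 0.090 and 0.17 on WT 1, WT 2 and WT 3, so that the genotypes overlapped. That of the mural list was -0.020, -0.072 and -0.29 in KO, against 0.18, 0.20 and 0.36 in WT, with no overlap over its 5 genes. In mean level rather than median deviation the mural genes overlapped, at 7.57 to 7.80 in KO and 7.53 to 7.85 in WT. The 7 further mural genes overlapped on neither measure, with a median deviation of -0.15, -0.046 and -0.13 in KO, against 0.042, 0.10 and 0.17 in WT and a mean level of 6.12 to 6.30 in KO and 6.41 to 6.45 in WT. Such a gap is not particular to mural lists, since the mean levels of the astrocyte and red blood cell lists did not overlap either, there higher in KO. Among single tested genes, 6.79% had all KO arrays below all WT arrays. Whether a list separates the genotypes was not tested. For the fibroblast and matrix list the median deviation was 0.20, -0.12 and -0.11 in KO, against 0.14, -0.082 and -0.17 in WT, again with overlap.

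Markers of other cells differed between the pools beside these lists. Red blood cell genes, 5 of 9 tested, had a mean level of 9.93 to 10.28 in KO and 9.22 to 9.33 in WT. On their brightest probes all of them read higher in KO. For 4 of them the lowest KO value exceeded the highest WT value, against 8.6% of all tested genes. Among these, Hbb-b2 and Alas2 were detected on 3 KO arrays and 1 WT array each. Their probes thus met the filter mainly on KO arrays. Further probes differed by -0.84 to 0.87 for Hbb-bs and by -0.27 to 0.53 for Hbb-bt. Microglial genes, 9 of 13 tested, averaged 7.75 to 8.11 in KO and 7.35 to 7.77 in WT, and 7 of them read higher. Neuronal genes, 10 of 12 tested, averaged 11.43 to 11.88 in KO and 11.83 to 11.93 in WT, lowest on KO 1. Astrocytes wrap the vessels with their end-feet, and their genes, 10 of 10 tested, averaged 11.12 to 11.18 in KO and 10.93 to 11.06 in WT. Choroid plexus and ependymal genes, 5 of 9 tested, averaged 7.28 to 7.56 in KO and 7.51 to 7.65 in WT, with Folr1, Otx2 and Cldn2 not tested for want of detection. Oligodendrocyte genes, 7 of 10 tested, averaged 11.62 to 11.73 in KO and 11.599 to 11.67 in WT. The part of these cell types in the vascular values was not tested.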

How the data were processed

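Per the file headers, the authors deposited an intensity for each probe (linear scale) with its detection p-value. The deposited intensity values already share one distribution, with sorted values differing by at most 0.4 between the 6 arrays, and no background had been subtracted. The authors' value table holds the log2 of the same signals within 5e-05. The submitters' processing notes name Partek without settings. The detection p-value was taken to be against each array's negative controls.

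Signals were corrected and normalized with neqc of limma 3.58.1 in R 4.3.3 (offset 16), and probes detected on at least 3 arrays were tested with lmFit and eBayes (2-sided, no covariates, Benjamini-Hochberg at 0.05 over 20006 probes). The 95% intervals come from this model and are not adjusted. The correction widens differences between dim probes. The 3 pools per genotype limit the precision, and p-values measure the spread between pools. The fit was tested on simulated data with 3 arrays per group and with spreads shuffled between probes. At an adjusted p under 0.05 it recovered 1.79% of 1.5-fold, 33.9% of 2-fold and 85.8% of 4-fold changes. Not passing thus does not show that a gene is unchanged.

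The brightest tested probe stood for a gene in lists, and lists were described by counts and medians, with no set test. Symbols came from the platform annotation, updated through Entrez identifiers to RefSeq (GRCm38.p6), and 18 probes with several symbols were not named. Values on every array are given for defining members (Cldn5, Pecam1, Flt1, Slco1a4, Pdgfrb, Rgs5, Acta2, Vtn, Dcn, Col1a1, Col1a2 and Col4a1) where tested, and for members with an unadjusted p under 0.05 or arrays that do not overlap. Of each further vascular or signalling list the genes with the 3 smallest p-values are named, and some more genes were named after their values were seen. Lists of other cell types are given by level and by counts. The members and lists were chosen with earlier results of these data known.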

Additional observations from a re-analysis of the deposited data

How the results depend on the processing

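The single probe that passed over the whole array belongs to none of the genes listed here. It was lost (0 probes) with no background correction, with an offset of 50, in the authors' value table and with no filter. The same held with detection p under 0.01 on all arrays and with an intensity trend. The count ranged from 0 to 1 over the fits that leave out an array. The labels give no pairing of the pools. Deviations of same-numbered arrays correlated by 0.15, 0.0037 and 0.40, which cannot settle whether same-numbered pools are linked. With the replicate block 0 probes passed. The limma unadjusted p of Flt1, Col4a2 and Ogn was then 0.0111, 0.0174 and 0.00811, and that of Col4a1 rose to 0.0541 (adjusted p = 0.485 for each). Over all settings no named vascular probe passed (12 probes, 188 values, smallest adjusted p = 0.371), and 184 values kept their direction. Cldn5 turned to -0.059 with array weights and to -0.14 in a fit without KO 1 and WT 1, added after the data had been seen, and ranged from -0.092 to 0.21 when arrays were left out in turn. Dcn ranged from -6e-04 to 0.64. The mural median was -0.097 without background correction and in the authors' table, and ranged from -0.32 to -0.18 with arrays left out. The fibroblast and matrix median was -0.29 over the 4 genes detected at p under 0.01 on all arrays, and ranged from -0.14 to 0.14, and the endothelial median, 0.015 over all arrays, from -0.11 to -0.030, below 0 in each such fit. With array weights the endothelial median was -0.14 and the fibroblast and matrix median -0.17. The cause was not tested. No slide block was run, since the headers name no slide. Probes near background, such as Vwf, Pdgfrb and Ogn, have the least certain differences.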

Other observations

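The probes of 1 matrix gene disagreed by array rather than by genotype. Sparc, a collagen-binding protein abundant in brain, read 13.43, 13.71 and 13.57 on KO 1, KO 2 and KO 3, against 13.63, 13.60 and 13.44 on WT 1, WT 2 and WT 3 on its brightest probe. A dimmer Sparc probe (ILMN_1243212) read 10.18, 10.11 and 7.80 in KO, against 10.73, 9.89 and 7.57 in WT in the same order of arrays, low on both arrays numbered 3. For Timp3, an inhibitor of matrix proteases, the brightest probe differed by -0.11. A dim Timp3 probe (ILMN_1232928), detected on 1 KO and 3 WT arrays, lay lower on each KO array, with a difference of -0.58 (unadjusted p = 0.00835, limma adjusted p = 0.582), and a further dim probe differed by 0.063. These probes were chosen after their values were seen.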
